A study of Mus musculus with 8 samples.

Results

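Eif3j1 and Eif3j2 are a pair of near-identical mouse genes for the j subunit of eukaryotic initiation factor 3 (eIF3). They were selected by symbol as 2 of the 18501 genes in the authors' deposited table, because Eif3j2 differed strongly between groups. Their own levels are therefore given as a description, with no test. Rib cartilage of 10-day-old CD1 mice, an outbred stock, was digested with collagenase, and RNA was taken from the filtered and plated cells in 8 libraries. In the CG line, 2 libraries came from mutants with a changed seed region of the 3p arm of miR-140, labelled CG CG, and 2 from wild types of that line. In the CT line, 2 libraries came from mutants with a C>T base change in the miR-140 gene and 2 from wild types of that line. The series' design text gives both mutations as routes to more of the miR-140 5p arm. The labels do not give zygosity, littermates or pooling of animals.

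eIF3 is a large protein complex that binds the small ribosomal subunit and helps to assemble it with initiator tRNA and mRNA. The j subunit is loosely attached and lies near the mRNA entry channel. In budding yeast its counterpart, Hcr1, also takes part in ribosome recycling together with the ATPase Rli1, the counterpart of mammalian Abce1. Eif3j1 is spliced from many exons, whereas Eif3j2 is an intronless copy on another chromosome.

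The coding sequences of the copies differ only in the length of a GCG repeat just after the start codon, which has 6 units in Eif3j1 and 8 in Eif3j2 in the GENCODE M21 transcripts. The start of the Eif3j1 coding sequence is shown because it holds this place. It lies in exon 1 at chr2:122028673-122028699, plus strand, GRCm38, with the repeat in capitals.
Eif3j1: atgGCGGCGGCGGCGGCGGCGgcagcg

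The coding sequences have 786 bases in Eif3j1 and 792 in Eif3j2, or 261 and 263 codons without the stop, and are identical after the repeat. The Eif3j2 transcript of 2379 bases aligned over its whole length with bases 78 to 2446 of the 5413-base Eif3j1 transcript. The aligned bases were 99.83% identical, with 4 mismatches over 2369 positions, and Eif3j2 had 10 extra bases at 2 places, 6 of them in the repeat. None of the mismatches lay in the coding sequence.

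Eif3j1 has 8 exons on chromosome 2, and Eif3j2 has 1 exon on chromosome 18. Counted from the start of the Eif3j2 transcript, a mismatch was at base 27, 4 extra bases lay at base 1159 in a run of A, and further mismatches were at bases 1540, 1551 and 2234. Of all stretches of 100 bases in Eif3j2, 84% also occurred in Eif3j1. For stretches of 50 bases this was 90.8%, and for 150 bases 77.1%. A read from a shared stretch cannot be assigned to a copy by its sequence, so the level of each copy is uncertain. These sequences are those of the C57BL/6J reference and not of the CD1 mice studied, and no source used here gives the read length.

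**Figure D1:**
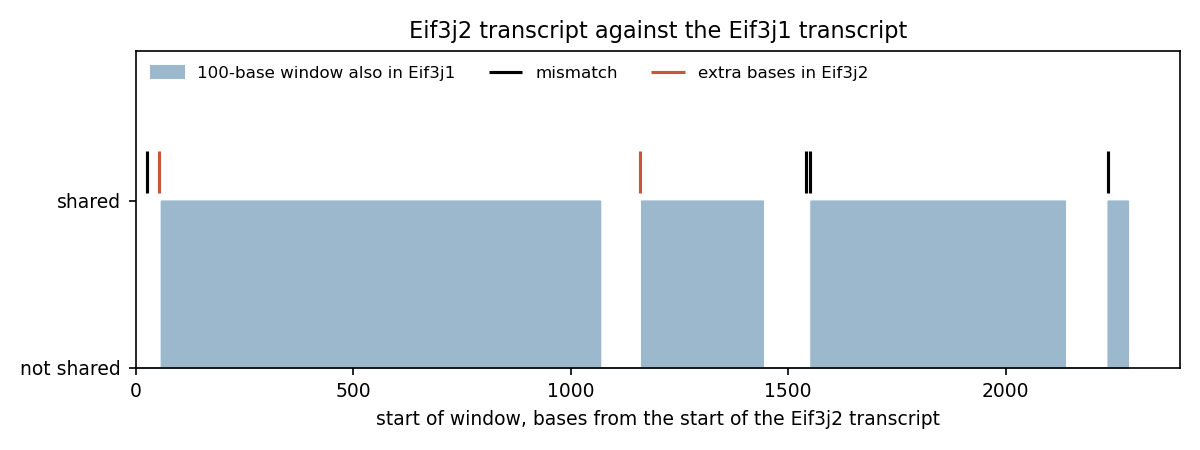
Places where the Eif3j2 transcript matches or differs from the Eif3j1 transcript, by distance in bases from the Eif3j2 start. Blue blocks mark starts of 100-base windows also found in Eif3j1 (84% of windows), black ticks the 4 mismatches and red ticks the 2 places with extra bases in Eif3j2.

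Total counts ran from 26536868 to 28678641 per library, and no library was a duplicate of another. Most cartilage markers were abundant in each library, but not all. Col2a1, the main cartilage collagen, was at 4855 to 10637 FPKM, fragments relative to gene length and library size. Sox9, a chondrocyte transcription factor, was at 137 to 217 FPKM. Acan, Col11a1 and Snorc were at 387 to 833, 195 to 343 and 138 to 357 FPKM. Comp, Col9a1 and Hapln1 varied more, at 81.9 to 498, 82.4 to 540 and 64.3 to 290 FPKM. Matn1 and Matn3 were lower, at 4.50 to 37.1 and 4.38 to 15.0 FPKM. The leukocyte marker Ptprc was at 0.07 to 2.05 FPKM and the endothelial marker Cdh5 at 0.67 to 11.3 FPKM, and haemoglobin Hba-a1 varied from 2.29 to 2593 FPKM. Macrophage markers Adgre1 and Csf1r reached at most 0.76 and 1.86 FPKM, but Cd68 and Lyz2 reached 19.1 and 36.1 FPKM. Of the neutrophil markers, S100a8 varied from 1.70 to 97.2 FPKM and S100a9 from 1.86 to 148 FPKM. Camp was at 6.81 to 18.15 FPKM and Ltf at 0.11 to 12.1 FPKM. Fibroblast-expressed Dcn was at 271 to 1443 FPKM. The lines were apart on the first principal component (64.5% of the variance), and the second (12.2%) set CG mutant replicate 1 apart. The part of these differences in the results was not tested.

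Eif3j2 was close to absent in both CG mutants and high in both CG wild types, and the order was the other way round in the CT line. It had 24.8 and 34.3 estimated counts in CG mutants, against 3556 and 1475 in CG wild types. It had 1745 and 1759 estimated counts in CT mutants, against 44.3 and 40.7 in CT wild types. In bulk RNA, a change in the share of cells that express a gene and a change in its RNA per cell cannot be told apart. The groups did not overlap in either line. Opposite moves of mutants in the CG and CT lines, without overlap of libraries, were found in 668 of the 14359 genes tested, or 4.65%. Eif3j2 was the 1 gene of 14359, or 0.00696%, called by edgeR in each mutant comparison, which is how it came to be chosen. The 4 low libraries lay within a narrow band, while the highest of the 4 high libraries, CG wild type replicate 1, stood apart from the other 3.

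In CPM, counts relative to the TMM-scaled library size, Eif3j2 had 1.03 and 1.31 in CG mutants, against 129 and 58.9 CPM in CG wild types. Eif3j2 levels of the CT line were 57 and 59.5 CPM in mutants, against 1.56 and 1.38 CPM in wild types. The 2 CT mutants thus lay close to CG wild type replicate 2. In an edgeR fit of all 8 libraries the log2 fold change was -6.32 ± 0.42 (SE) in CG mutants against CG wild types, a 79.8-fold difference. In CT mutants against CT wild types it was 5.30 ± 0.39, or 39.5-fold, in the other direction. For CT against CG wild types it was -5.99 ± 0.40, or 63.6-fold. The authors' deposited table gives log2 ratios of -6.35, 5.32 and -6.01 for the same 3 comparisons.

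Eif3j1 differed in the opposite direction to Eif3j2 within each line. It had 3507 and 3744 estimated counts in CG mutants, against 17.8 and 1834 in CG wild types. It had 3598 and 3466 estimated counts in CT mutants, against 5186 and 5328 in CT wild types. CG wild type replicate 1 therefore had next to no counts on Eif3j1 and the most on Eif3j2 of all 8 libraries.

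In CPM, Eif3j1 was at 146 and 143 in CG mutants, against 0.643 and 73.2 in CG wild types. The CT line had 118 and 117 CPM of Eif3j1 in mutants, against 183 and 181 CPM in wild types. Again the groups did not overlap, with CG mutants above their wild types and CT mutants below theirs. Such opposite moves without overlap were found in 4.65% of all genes tested. The log2 fold change of Eif3j1 was 1.97 ± 1.17 (SE) in the CG line and -0.63 ± 1.12 in the CT line. All groups share a spread in this fit. The SE of the CT line thus also holds the gap between the CG wild types, and CT libraries of a group were close. The CG value depended on which CG wild type was kept, being 0.98 without CG wild type replicate 1 and 7.78 without CG wild type replicate 2. In CT against CG wild types the log2 fold change of Eif3j1 was 2.31 ± 1.18, being 1.31 and 8.12 without CG wild type replicate 1 or 2.

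**Figure D2:**
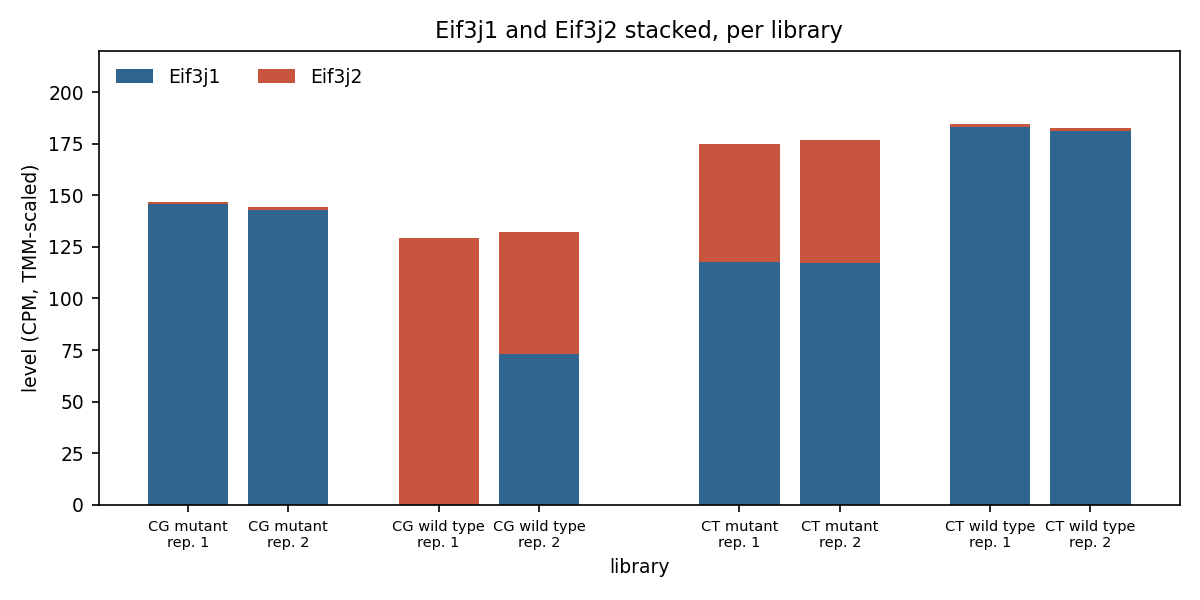
Levels of Eif3j1 (blue) and Eif3j2 (red) in CPM, stacked, with 1 bar for each of the 8 libraries. The summed height runs from 129 to 132 CPM in CG wild types and from 175 to 185 CPM in the CT line, while the red part ranges from 1.03 to 129 CPM over all libraries.

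The sum of both copies varied far less than either copy. It was 147 and 144 CPM in CG mutants, against 129 and 132 CPM in CG wild types. In the CT line the sum was 175 and 177 CPM in mutants, against 185 and 183 CPM in wild types. Within each group of 2 libraries the sums were thus close, although the copies of the 2 CG wild types differed greatly.

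When both rows were replaced by their sum, the edgeR log2 fold change was 0.15 ± 0.08 (SE) in the CG line, a 1.11-fold difference, and -0.06 ± 0.08 in the CT line, a 1.04-fold difference. For CT against CG wild types it was 0.49 ± 0.08, or 1.40-fold. The range of log2 CPM over the 4 CG libraries was 0.18 for the sum, against 7.65 for Eif3j1 and 6.86 for Eif3j2. Over the 4 CT libraries it was 0.08 for the sum, against 0.64 for Eif3j1 and 5.34 for Eif3j2. The median range of all genes was 0.39 in the CG and 0.36 in the CT line, so that the sum lay below the median gene and Eif3j2 far above it. All genes here include those with low counts, and the sum was not compared with genes of like level.

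Taken as a share of the pair, Eif3j2 took nearly all, part or next to none of the counts. Its share was 0.702% (95% Wilson interval 0.480 to 1.04%) and 0.907% (0.645 to 1.26%) in CG mutants. In CG wild types it was 99.5% (99.2 to 99.7%) in replicate 1 and 44.6% (42.9 to 46.3%) in replicate 2. The rest of the counts, 0.497% and 55.4% in these CG wild types, lay on Eif3j1.

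In CT mutants the Eif3j2 share was 32.7% (31.4 to 33.9%) and 33.7% (32.4 to 35.0%). In CT wild types it was 0.847% (0.627 to 1.13%) and 0.758% (0.563 to 1.03%). Group means were 0.805 ± 0.145% (SD, n = 2) in CG mutants and 72.1 ± 38.8% in CG wild types, and 33.2 ± 0.714% in CT mutants and 0.802 ± 0.0629% in CT wild types. The 4 libraries under 1% had overlapping intervals, as did the 2 CT mutants. The 2 CG wild types differed from each other by more than counting error. Intervals cover counting error only, and not the error of dividing reads between the copies.

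The counts themselves show that reads were divided between the copies, but not by which rule. Neither gene had a whole count in any of the 8 libraries, whereas the sum of the 2 was whole in all 8 within 0.001. Fractional counts are given by counters that share out reads matching more than 1 gene, and the fractions here cancelled within the pair. The lengths implied by the deposited counts and FPKM values were 2318 to 2326 bases for Eif3j1 and 2319 to 2338 bases for Eif3j2. The implied Eif3j1 length is well below the 5413 bases of the transcript compared above. Which of its bases were counted is not known, and the bearing of this on the shares was not tested. Per length, the shares were nearly the same as from counts, for example 44.5% from FPKM in CG wild type replicate 2. How far the levels of Eif3j2 come from its own transcription was not tested.

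A second copy lies beside Eif3j2. Its immediate neighbour on chromosome 18 in the RefSeq gene table is Gm3650, annotated by GENCODE as an unprocessed pseudogene and by RefSeq as protein-coding. All 747 bases of the Gm3650 transcript aligned with bases 6565 to 7311 of the Spg11 transcript, with 1 mismatch. Spg11, which encodes spatacsin, a protein of lysosome and autophagosome turnover, is in turn the immediate neighbour of Eif3j1 on chromosome 2, on the opposite strand. Eif3j1 with Spg11 and Eif3j2 with Gm3650 are thus neighbours in a similar arrangement, and each pair overlaps at its ends in the RefSeq gene table. No source used here gives the strand setting of the counting, so reads of overlapping ends cannot be told apart.

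Gm3650 was at a low level and differed in the same direction as Eif3j2 within each line. Its lowest counts were in CT wild types, whereas those of Eif3j2 were in CG mutants. Gm3650 had 8.87 and 9.24 estimated counts in CG mutants, against 108 and 49.9 in CG wild types. It had 23.5 and 22 in CT mutants, against 3.82 and 6.09 in CT wild types. As with Eif3j2, CG wild type replicate 1 was the highest library and the groups did not overlap in either line. Opposite moves without overlap were found in 4.65% of all genes tested. The sum of Gm3650 and Spg11 was whole in all 8 libraries within 0.001. Setting the share of Gm3650 beside that of Eif3j2 was chosen after its values were seen.

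As a share of its sum with Spg11, Gm3650 made up 0.805% and 0.795% in CG mutants, against 8.68% and 4.49% in CG wild types. It made up 1.95% and 1.83% in CT mutants, against 0.345% and 0.534% in CT wild types. Per length the Gm3650 shares were higher, since the Spg11 transcript is longer, with the same order of groups. From FPKM they were 4.85% and 4.86% in CG mutants, against 37% and 22.8% in CG wild types. CT libraries had 11.1% and 10.6% in mutants, against 2.21% and 3.37% in wild types. For the shares of counts, 95% Wilson intervals were taken for each library alone. They ran from 0.408 to 1.55% in CG mutants and from 3.42 to 10.4% in CG wild types. In the CT line they ran from 1.21 to 2.86% in mutants and from 0.141 to 1.14% in wild types. These intervals cover counting error only and are not a comparison of groups. Gm3650 fell in CT wild types against CG wild types, by -4.06 ± 0.48 (SE) on the log2 scale at an edgeR adjusted p of 0.000949. Its log2 fold change was -3.03 ± 0.44 in CG mutants and 2.08 ± 0.51 in CT mutants, with edgeR adjusted p-values of 0.107 and 0.958, so neither passed. Without CG mutant replicate 2 the CG value passed, but that fit left a single CG mutant library and called far more genes than the main fit. Spg11 averaged 44.7 ± 1.01 CPM in mutants of the CG line against 41.8 ± 0.860 CPM in its wild types (SD, n = 2 each). For Spg11 in the CT line the means were 39.3 ± 1.04 CPM in mutants against 38.7 ± 0.232 CPM in wild types, and it passed in no comparison, with edgeR adjusted p-values from 0.325 to 0.998.

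**Figure D3:**
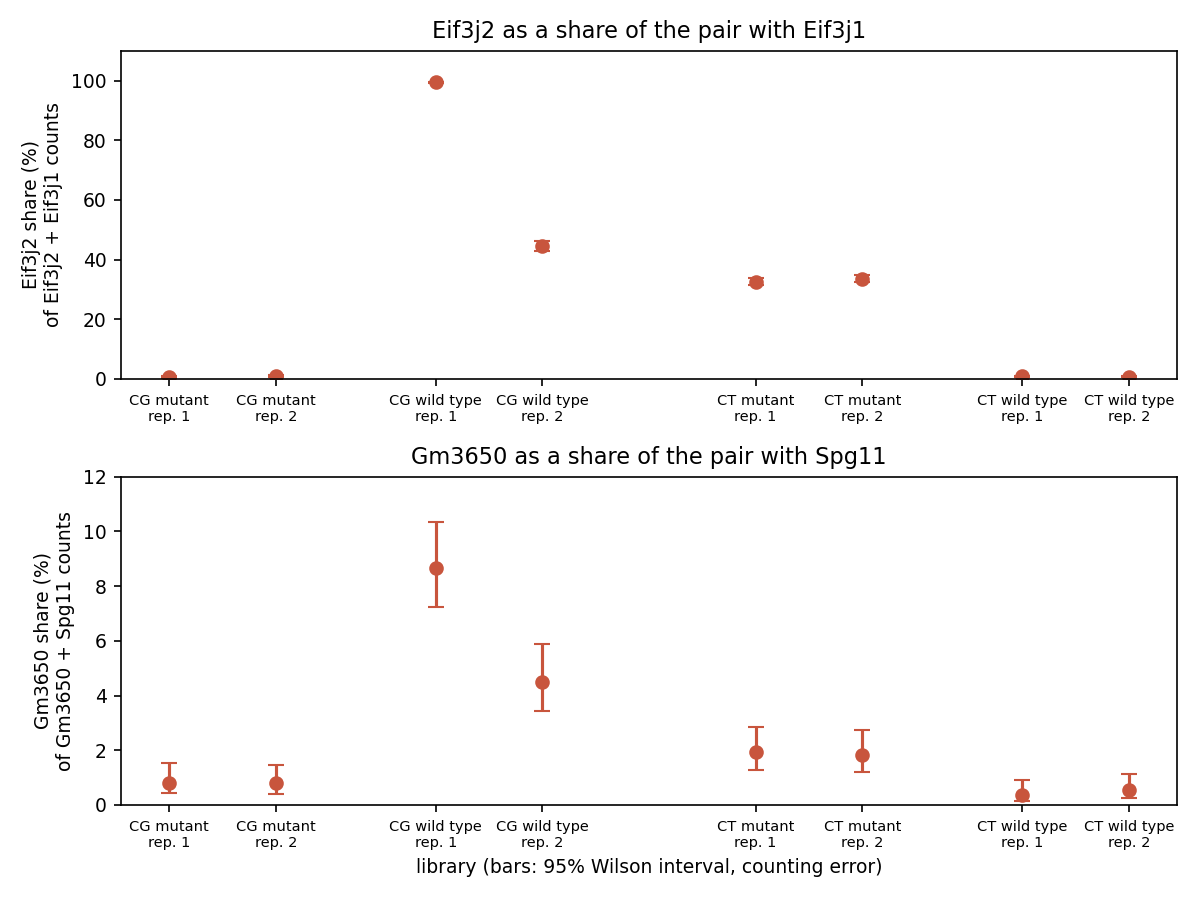
Share in percent of Eif3j2 in its sum with Eif3j1 (top) and of Gm3650 in its sum with Spg11 (bottom), per library, with 95% Wilson intervals as bars. In both panels CG wild type replicate 1 is highest (99.5% and 8.68%), followed by CG wild type replicate 2 and the 2 CT mutants, and the other 4 libraries are under 1%.

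The wider surroundings of both copies were examined next. Of the 10 nearest genes of the table on each side, 12 of 20 around Eif3j1 and 12 of 20 around Eif3j2 passed the filter on low counts. In the mutant comparisons none passed the edgeR test, where the share of all 14359 genes called was 0.00696% in each line. An unadjusted p under 0.05 was found for 2 neighbours of Eif3j1 and 1 of Eif3j2, Gm3650, in the CG line, against 11.4% of all genes. In the CT line it was found for 0 and 1, again Gm3650, against 5.11% of all genes, and DESeq2 called none in either line, although it gave no adjusted p for Gm3650 in these comparisons. The 2 of Eif3j1 were Casc4, with means of 72.5 ± 6.25 CPM in CG mutants against 57.2 ± 2.72 CPM in their wild types, and B2m, the light chain of class I MHC, with 143 ± 1.31 CPM in CG mutants against 117 ± 2.07 CPM in their wild types. Their adjusted p-values were 0.270 and 0.289. In the CT line the smallest p-values around Eif3j1 were those of Wdr76 and Mfap1a, at 0.28 ± 0.17 and -0.17 ± 0.10 on the log2 scale, with 0.958 as adjusted p for both. Around Eif3j2, after Gm3650, the smallest p-values were those of the leucyl-tRNA synthetase gene Lars in the CG line, at 0.21 ± 0.11 with an adjusted p of 0.529, and of the decapping enzyme gene Dcp2 in the CT line, at 0.21 ± 0.13 with 0.958.

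In CT against CG wild types, 4 of the 12 neighbours of Eif3j1 and 2 of the 12 neighbours of Eif3j2 passed, against 33.7% of all genes. The counts at an unadjusted p under 0.05 were 5 and 2, against 45.1% of all genes. Casc4 rose by 0.86 ± 0.09 and Ctdspl2, the immediate neighbour of Eif3j1, by 0.46 ± 0.14 on the log2 scale, with edgeR adjusted p-values of 0.000643 and 0.0383. Mfap1a and Mfap1b, themselves near-identical spliceosome genes, had log2 fold changes of -0.58 ± 0.10 and -0.79 ± 0.13, with adjusted p-values of 0.00503 and 0.00368. Around Eif3j2 the genes that fell were Gm3650 and Lars, with Lars at -0.45 ± 0.11 with an adjusted p of 0.0191. Ctdspl2 failed to pass when either CG wild type, either CT mutant or replicate 1 of the CT wild types was left out, with log2 fold changes of 0.30 to 0.49. Lars failed to pass when either CG wild type or replicate 2 of the CT wild types was left out, at -0.51 to -0.38. Jakmip2, the gene after Eif3j2, had at most 2 counts in any library.

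None of the other subunits of eIF3 passed in either mutant comparison. All 12 were tested, and in each line 0 of 12 passed the edgeR test, 0 were at an unadjusted p below 0.05, and the DESeq2 count was 0. Their median log2 fold change was 0.01 in CG mutants, with a range from -0.15 to 0.14, against a median of 0.00 over all genes. In CT mutants the median was -0.06, with a range from -0.19 to 0.08, against 0.00 over all genes. The smallest p-values in the CG line were those of Eif3d, an mRNA cap-binding subunit, at -0.15 ± 0.08 and Eif3a, the scaffold subunit, at 0.14 ± 0.10, with adjusted p-values of 0.543 and 0.620. In the CT line they were those of Eif3f at -0.17 ± 0.09 and Eif3c, another core subunit, at -0.19 ± 0.10, both with an adjusted p of 0.958. The summed copies, at 0.15 in the CG line and -0.06 in the CT line, lay just above the range of the 12 subunits in the CG line and within it in the CT line.

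Between the wild types, 7 of the 12 subunits were higher in CT than in CG wild types and 0 were lower, where 17% of all genes were higher and 16.8% lower. Their median log2 fold change was 0.31, against 0.00 over all genes. Eif3l rose to 222 ± 5.69 CPM in CT wild types, against 166 ± 1.61 CPM in CG wild types (SD, n = 2 each), or by 0.42 ± 0.08 on the log2 scale (edgeR adjusted p of 0.00694). Eif3e rose by 0.52 ± 0.10 and Eif3m by 0.51 ± 0.10, with adjusted p-values of 0.00752 and 0.00808. Eif3f and Eif3h rose by 0.41 ± 0.09 and 0.36 ± 0.09.

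Eif3g, an RNA-binding subunit, rose by 0.39 ± 0.11 with an adjusted p of 0.0327. The seventh was Eif3d, at 0.25 ± 0.08 and an adjusted p of 0.0486, which passed in 0 of 8 fits with a library left out and in 4 of 7 other settings. Eif3g passed in 3 of the 8 fits. The other 5 subunits were Eif3a at -0.18, Eif3c at -0.09, Eif3k at 0.07, Eif3i at 0.14 and Eif3b at 0.21, and none of them passed. The summed copies, at 0.49, lay within the range of the 12 subunits, -0.18 to 0.52. The count of 7 was lower with any library left out, at 0 without CG wild type replicate 1, 3 without CG wild type replicate 2 and 5 or 6 without any other library.

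**Figure D4:**
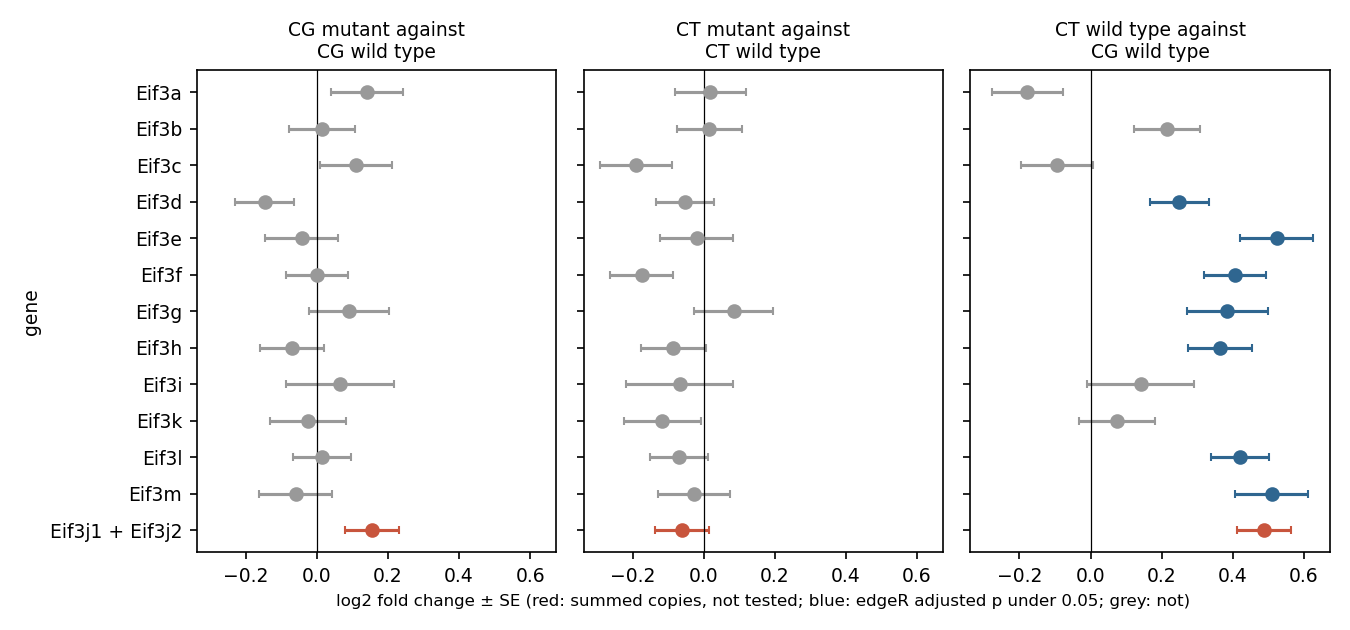
Log2 fold change with its SE for the 12 other eIF3 subunits and for the summed copies (red, not tested) in 3 comparisons, blue where the edgeR adjusted p was under 0.05 and grey otherwise. No subunit is blue in the mutant comparisons, and 7 are blue in CT against CG wild types, where the summed copies are at 0.49.

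Relative to gene length, the summed copies were the least abundant of the 13 eIF3 genes by their median over 8 libraries. The sum was at 55.6 and 60.5 FPKM in CG mutants, against 54.1 and 53.7 FPKM in CG wild types. Per length, CT mutants had 80.2 and 82.5 FPKM, against 81.6 and 83.8 FPKM in CT wild types. The most abundant subunit, Eif3c, had a median of 202 FPKM, with a range of 180 to 210 FPKM. The next lowest, Eif3m, had a median of 76.6 FPKM and a range of 55.4 to 106 FPKM, which overlapped that of the summed copies, 53.7 to 83.8 FPKM. Above it came Eif3l, Eif3a and Eif3k, with medians of 105.2, 104.6 and 103.4 FPKM and overlapping ranges.

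Among 34 other factors of initiation, release and recycling, all tested, none passed the edgeR test in either mutant comparison, none was at an unadjusted p below 0.05, and the DESeq2 count was 0. Their median log2 fold change was 0.02 in CG mutants and 0.01 in CT mutants. Abce1, which splits ribosomes after termination, averaged 323 ± 7.05 CPM in mutants of the CG line against 333 ± 10.6 CPM in its wild types (SD, n = 2 each). Abce1 means of the CT line were 313 ± 17.4 CPM in mutants against 313 ± 15.6 CPM in wild types. Eif1ax, which encodes the initiation factor eIF1A from the X chromosome, averaged 68.1 ± 8.74 CPM in mutants of the CG line against 60.8 ± 1.43 CPM in its wild types. Eif1ax means of the CT line were 84.1 ± 2.40 CPM in mutants against 80.2 ± 10.4 CPM in wild types.

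The smallest p-values in the CG line belonged to Eif4ebp2, a translation repressor, and to Eif2d, a recycling factor. Their log2 fold changes were -0.20 ± 0.09 and -0.20 ± 0.12, with edgeR adjusted p-values of 0.454 and 0.556. In the CT line the smallest p-values belonged to Denr, a partner of Mcts1 in recycling, and to Eif4ebp1, another translation repressor. Their log2 fold changes were 0.18 ± 0.08 and -0.26 ± 0.13, both with an edgeR adjusted p of 0.958. Y-linked Eif2s3y had 535 and 635 counts in CG mutants, against 2 and 574 in CG wild types, and 1154 and 14 in CT mutants, against 1160 and 9 in CT wild types. It was near 0 in CG wild type replicate 1 and in replicate 2 of both CT groups, so the sexes of the animals differed within 3 of the groups. The CT mutants, at 57 and 59.5 CPM of Eif3j2, had 1154 and 14 counts of Eif2s3y. CG wild type replicate 1, with 2 counts of Eif2s3y, had the highest Eif3j2 level, at 129 CPM. The part of sex in the levels of Eif3j2 was not tested.

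In CT against CG wild types, 6 of these 34 factors were higher and 6 lower, against 33.7% of all genes called in either direction. The lower ones with the smallest p-values were the helicase gene Eif4a2 at -0.64 ± 0.09, Eif1, whose product guards start codon choice, at -0.48 ± 0.09, and the scaffold gene Eif4g3 at -0.41 ± 0.08. Eif4ebp1 was also lower, at -0.57 ± 0.13. The higher ones were Eif4h, a cofactor of the helicase, at 0.40 ± 0.09 and Eif2s1, the alpha subunit of eIF2, at 0.39 ± 0.09. EdgeR adjusted p-values of these 6 were from 0.00170 to 0.0151. Eif1ax also passed, at 0.40 ± 0.12 with 0.0374, but failed to when either CG wild type, either CT mutant or replicate 2 of the CT wild types was left out. The count of 12 was 3 without CG wild type replicate 1, 2 without its replicate 2 and 4 with replicate 2 of the CT wild types left out.

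Other near-identical genes were compared in the same way. By symbol, coding sequence identity of at least 95% and a mean summed count of at least 100, 66 pairs were found, Eif3j1 with Eif3j2 among them at 99.24% identity. The share of the second copy ranged over 98.8 percentage points in the 8 libraries for Eif3j1 with Eif3j2, the widest range of the 66. Eif3j2 was chosen because it differed strongly between groups, which favours a wide range, so this place is a description only. The next were Tmem254b with Tmem254c at 91.9 points, Gm14305 with Gm14308 at 70.9 points and Zfp966 with Zfp967 at 51.4 points. Tmem254b with Tmem254c had a mean summed count of 151, against 4420 for Eif3j1 with Eif3j2. The median range of the other 65 pairs was 10.1 points, and 32 of them ranged over less than 10 points. Some of these pairs share a gene.

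**Figure D5:**
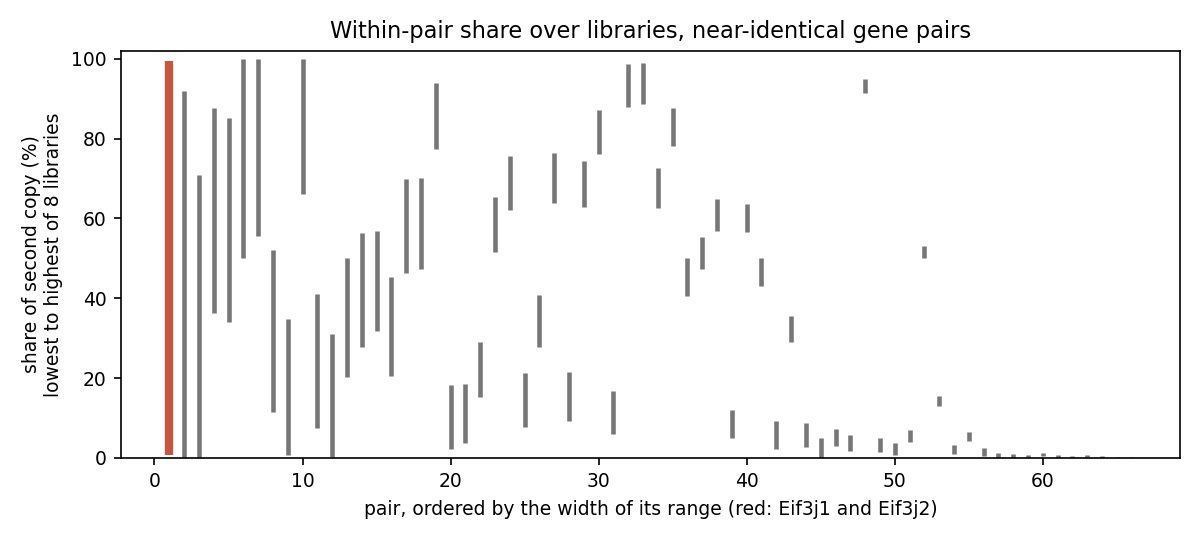
Lowest to highest share, in percent, of the second copy over 8 libraries for 66 near-identical gene pairs, ordered by the width of the range, with Eif3j1 and Eif3j2 in red. The red bar spans 98.8 points and the median of the other 65 pairs is 10.1 points. A wide red bar is favoured by the choice of Eif3j2 for its differences between groups.

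Genes with the most similar log2 CPM over the 8 libraries were found by Pearson r, as a description only, since the libraries share a line and fall into high and low sets for Eif3j2. The highest r with Eif3j2 were those of the integrin ligand gene Npnt at 0.958, the transcription factor gene Etv6 at 0.949, the splicing factor gene Cwc22 at 0.942, Srp54a, a signal recognition particle gene that itself has near-identical copies, at 0.941, and the RNA-binding protein gene Igf2bp2 at 0.927. Of these, Cwc22 had 1042 and 1048 counts in CG mutants, against 3804 and 3370 in CG wild types. It had 7310 and 4240 counts in CT mutants, against 1306 and 1558 in CT wild types. The direction of Cwc22 within each line thus matched that of Eif3j2, but its highest libraries were the CT mutants. The lowest r with Eif3j2 were those of Scaf1 at -0.941, Rcc1l at -0.918, Kdelr1, which returns proteins to the endoplasmic reticulum, at -0.912, Use1 at -0.908 and the actin-associated gene Palld at -0.882. By rank, Spearman's rho was highest for Npnt among the first 5, at 0.881, and lowest for Rcc1l among the last 5, at -0.976. Eif3j1 itself had an r of -0.590 with Eif3j2 and a rho of -0.762.

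For Eif3j1 the highest r were those of Plpp5 at 0.957, Tmem127 at 0.952, Jmjd7 at 0.951, Zfp973 at 0.942 and the phospholipase gene Pla2g4b at 0.927. The lowest were those of the splicing factor gene Prpf4 at -0.984, Plcb1, another phospholipase gene, at -0.951, Zfp365 at -0.948, the helicase gene Helq at -0.907 and the galanin receptor gene Galr2 at -0.901. Of these 10 genes, 5 lie on chromosome 2 with Eif3j1, against 7.97% of the genes tested, and they are Tmem127, Jmjd7, Zfp973, Pla2g4b and Plcb1. Of the 10 named for Eif3j2, 0 lie on chromosome 18, against 2.67% of the genes tested. On chromosome 2 lies 1 of these 10, Cwc22, against 7.97% of the genes tested. The 5 highest values for Eif3j1 rested largely on CG wild type replicate 1. Without it their r was from 0.183 for Pla2g4b to 0.679 for Jmjd7, with Plpp5 at 0.207. The 5 lowest also weakened, to between -0.389 for Galr2 and -0.853 for Plcb1, with Prpf4 at -0.710. Over all 8 libraries, Spearman's rho of the 5 highest was from 0.429 for Tmem127 to 0.643 for Jmjd7. That of the 5 lowest was from -0.595 for Galr2 to -0.881 for Plcb1.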

How the data were processed

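Per the submitters' processing notes, reads were aligned with HISAT2 2.0.4 to mm9. No source used here names the counter or the annotation. Per the file headers, the deposited expression table holds the authors' FPKM values, relative to gene length and library size, and their estimated counts, which are not normalized. The authors' deposited comparison table gives log2 ratios and q-values, of which the q-values were not used. Estimated counts, not whole for 2282 to 2518 genes per library, were rounded for testing. Tests used the edgeR 4.0.16 quasi-likelihood F test in R 4.3.3, with 4 group means over 8 libraries, TMM factors, the default low-count filter (14359 genes), Benjamini-Hochberg adjustment over all genes and a threshold of 0.05. SE is the absolute log2 fold change over the root of F. DESeq2 1.42.0 and limma 3.58.1 on log2(FPKM + 1) or log2(FPKM + 0.1) were alternatives. The fit was tested on simulated data.

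Members and lists were chosen with earlier results of these data known. Named from lists and neighbours were the 6 smallest p-values past the threshold per comparison, else the 2 smallest p-values; a few further ones that passed were named after their values were seen. Named by pattern were the 5 highest and 5 lowest Pearson r on log2 CPM with a prior count of 2, and the 3 other pairs with the widest range. Gene IDs of 18381 genes matched the RefSeq table of GRCm38.p6, and 24 symbols turned into dates were restored. As coding sequences of GENCODE M21 (GRCm38) were at hand, pairs were matched on these and not on proteins, with lengths within 90%. Nothing in the labels ties a library to its own animal or culture, so the spread behind each p-value is that between 2 libraries and may be technical.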

Additional observations from a re-analysis of the deposited data

Results flagged for a closer look

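Mutants moved one way against their wild types in the CG line and the other way in the CT line, with no overlap of libraries, in 668 of the 14359 genes tested, or 4.65%. Values below are the CG effect minus the CT effect on the log2 scale. For Eif3j2 this was -11.62, for Eif3j1 2.60 and for their sum 0.22, which were not tested because the genes were chosen for such differences.

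Of the 70 listed factors and neighbours tested, 6 had this pattern, or 8.57%. For Gm3650 the value was -5.11, with an edgeR adjusted p of 0.152 for the difference. For Casc4 it was 0.46 with an adjusted p of 0.894. It was 0.32 for Lars, 0.28 for Mfap1a, -0.64 for Wdr76 and -0.21 for Eif4e, with 0.967 each, so none of the 6 passed. Casc4 averaged 72.5 ± 6.25 CPM in mutants of the CG line against 57.2 ± 2.72 CPM in its wild types (SD, n = 2 each). Its CT means were 95.7 ± 1.61 CPM in mutants against 104 ± 0.233 CPM in wild types.

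Of the 20 genes named for their likeness to a copy, 13 had the pattern, which that choice favours, and they were not tested. The values were -3.66 for Cwc22, -1.15 for Srp54a, -0.94 for Npnt, -0.33 for Etv6 and -0.28 for Igf2bp2. They were 2.52 for Palld, 0.74 for Use1, 0.37 for Rcc1l, 0.27 for Scaf1 and 0.24 for Kdelr1. Of those named for Eif3j1, the values were 0.37 for Plpp5, -0.67 for Plcb1 and -0.21 for Prpf4.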

How the results depend on the processing

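The directions of Eif3j1, Eif3j2 and their sum held in all settings tried. With log2(FPKM + 1) the log2 fold changes of Eif3j2 were -4.65 in CG mutants, 4.07 in CT mutants and -4.48 between the wild types; the sum was at 0.10, -0.02 and 0.61, and Eif3j1 in CT mutants at -0.58. With log2(FPKM + 0.1) the sum was at 0.11, -0.03 and 0.62, Eif3j1 in CT mutants at -0.59 and Eif3j2 there at 5.15. The pseudocount compresses low values. Leaving out each library gave -6.77 to -5.65 for Eif3j2 in the CG line and -6.44 to -5.32 between the wild types, 0.98 to 7.78 and 1.31 to 8.12 for Eif3j1, and 0.47 to 0.51 for the sum between the wild types.

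Genes called in CG mutants numbered 1, against 13 with no filter, 216 by DESeq2, 4 and 3 by limma with the larger and smaller pseudocount, and 1 to 522 when a library was left out, 522 without CG mutant replicate 2. In CT mutants they numbered 1, against 2 with no filter, 20 by DESeq2, 3 in the fit of the line alone, 3 by limma on log2(FPKM + 1), and 0 to 4 with a library left out. Between the wild types they numbered 4843, and 2137 to 5324 with a library left out. There the eIF3 subunits called were 0 to 6, the other factors 2 to 11 and the neighbours of Eif3j2 1 to 2; the count of neighbours of Eif3j2 was 0 to 1 in CG mutants. Groups share replicate numbers whose meaning is not labelled, and same-numbered libraries had deviations with an r of -0.089 in the CG and 0.248 in the CT line. A replicate block called 4 genes in CT mutants, 1 in CG mutants, and 6 eIF3 subunits and 10 other factors between the wild types. The cause of these differences was not tested. Depth limits Gm3650, with 3.82 counts at its lowest.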
